A study of Sus scrofa with 32 samples.

Results

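The 46 genes described here encode the transforming growth factor beta (TGF-beta), bone morphogenetic protein (BMP) and activin ligands, the receptors and SMAD proteins that carry their signals, and the proteins that release, block or degrade them. They were chosen by gene symbol for their place in these pathways, and each was matched to 1 NCBI gene ID among the 30185 genes counted. The endometrium (the lining of the uterus) came from 8 prepuberal gilts whose ovulation had been induced with eCG and then hCG, and was collected on Day 14. The 4 pregnant gilts had been inseminated with German Landrace semen and the 4 cyclic (nonpregnant) gilts with the supernatant of spun semen of that boar, and the pregnant samples were cut from the hyperemic zones, where embryos attach, after removal of the conceptus. Stroma (S), blood vessels (BV) and the epithelium of the lumen (LE) and of the glands (GE) were cut from frozen sections by laser capture microdissection, so that a gilt gave 1 library per compartment. The cyclic gilts are named C128, C40, C42 and C78 and the pregnant ones P139, P39, P41 and P43, after the numbers in their labels. The GE library of P41 was not analysed here, which left 3 pregnant GE libraries, 4 libraries in each other group and 31 in all.

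The ligands of this family are secreted dimers whose precursors are cleaved by proprotein convertases such as furin. TGF-beta is stored in the matrix in a latent form, bound to a latent TGF-beta binding protein. A ligand joins type II and type I receptor kinases, and the type I receptor phosphorylates SMAD2 and SMAD3 after TGF-beta or activin, or SMAD1, SMAD5 and SMAD9 after a BMP. These SMADs enter the nucleus with SMAD4, while SMAD6, SMAD7 and the SMURF ubiquitin ligases turn the pathway down. Follistatins, chordin, noggin and gremlin bind ligands outside the cell. In the uterus the family is known for its parts in embryo attachment, in the remodelling of the stroma and in the growth of vessels.

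The libraries held 2415216 to 7081556 counts on genes, and 3 counts over a whole group, taken as the floor of detection, correspond to 0.161 to 0.291 CPM. Levels are given in CPM, counts scaled to the size of the library, after TMM normalization of all 31 libraries together. Levels of different genes are compared only per kilobase of annotated exon. Where all libraries of a group are given, they come in the order C128, C40, C42 and C78 for cyclic and P139, P39, P41 and P43 for pregnant gilts, without P41 in GE. The captured compartments were checked against marker genes. The sum of 9 epithelial markers was 1612 to 3373 CPM in LE and GE, 2.84 to 50.1 CPM in cyclic BV and 174 to 310 CPM in pregnant BV, and 10.9 to 480.2 CPM in S. The sum of 7 smooth muscle markers was 5177 to 17305 CPM in cyclic BV and 749.6 to 6317 CPM in pregnant BV, against at most 897 CPM elsewhere. The sum of 9 endothelial markers was 1573 to 3115 CPM in BV and 535 to 2883 CPM in S, with S above BV in P139 (2883 against 1883 CPM), against at most 1052 CPM in LE and GE. The sum of 7 fibroblast markers was 19025 CPM or more in each BV and S library. LE held 2909 to 13193 CPM of these and GE 2216 to 5568 CPM. The endothelial sum was 135 to 1052 CPM in LE and 16.2 to 185 CPM in GE. For smooth muscle it was 95.4 to 394 CPM in LE and 3.67 to 161 CPM in GE. The part of these cell types in differences between LE and GE was not tested. No marker of any list was at 0 in a whole group, in any compartment.

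Genes in the filtered table that the authors made for a compartment are called detectable. Of the 46 genes, 36 were detectable in each of the epithelia LE and GE, 40 in BV and 41 in S, 33 of them in all 4 compartments. BMP5, BMP7 and NOG were detectable in none, and were not tested. BMP7 read at most 4.23 CPM in a library and BMP5 at most 3.40 CPM, while NOG, which encodes the BMP antagonist noggin, read 0.336 CPM in BV of C128 and 0 in each of the other 30 libraries.

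**Figure D1:**
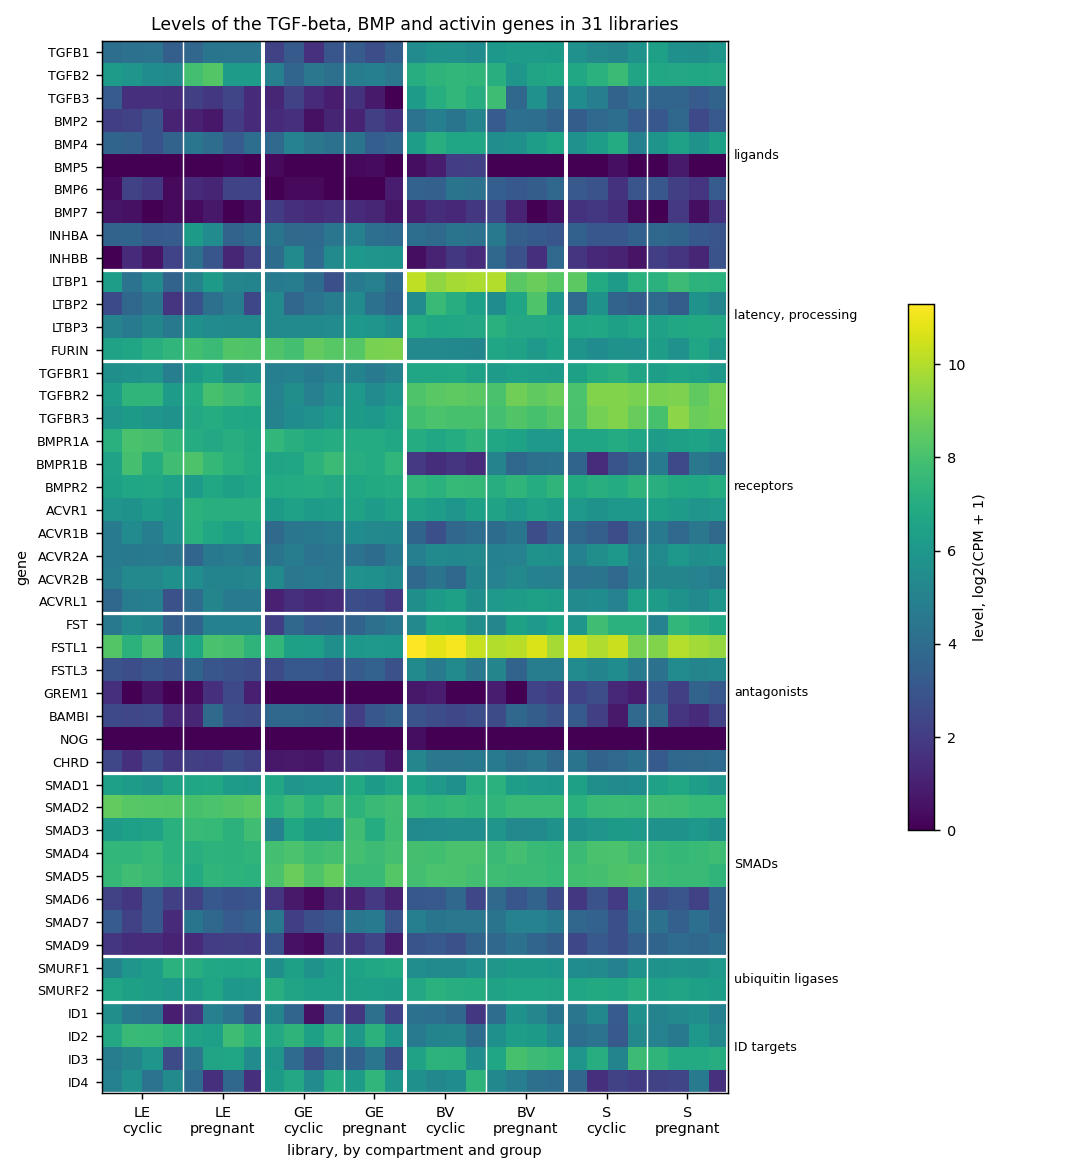
Levels of the 46 genes in 31 libraries as log2(CPM + 1), in rows by role and in columns by compartment and group. Most ligand and antagonist rows are brighter in BV and S than in LE and GE, and FSTL1 in BV is the brightest, up to 2506 CPM.

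The first question was in which compartment each gene was expressed. Compartments were compared in a joint fit of all libraries, averaged over cyclic and pregnant gilts, with the gilt as a block and edgeR's quasi-likelihood F test at a false discovery rate of 1%. Between LE and GE, 20 of the 43 genes tested were called (13 higher and 7 lower in LE), against 41.4% of all 13887 genes (25.9% higher and 15.5% lower). Between LE and BV 34 were called (9 higher and 25 lower in LE), against 49.2% of all genes (25.8% and 23.4%). Between LE and S 32 were called (11 higher and 21 lower in LE), against 50.6% (26.7% and 23.9%). GE and BV differed in 32 (8 higher and 24 lower in GE), against 58.3% of all genes (28.4% and 29.9%). GE and S differed in 32 (10 higher and 22 lower in GE), against 59.3% (27.9% and 31.4%). BV and S differed in 7 (5 higher and 2 lower in BV), against 7.19% of all genes (3.81% and 3.38%). As among all genes, more of the family was called between an epithelium and BV or S than between BV and S. In each of those pairs more of the family was lower than higher in the epithelium, while the 2 directions were closer among all genes.

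In 17 of 43 genes (39.5%) the level was lower in both LE and GE than in both BV and S with all 4 of these pairs called, against 14.4% of all genes tested. The 17 were the ligands TGFB1, TGFB3, BMP2, BMP4 and BMP6, the receptors TGFBR1, TGFBR2, TGFBR3, ACVR2A and ACVRL1, the antagonists FST, FSTL1, FSTL3 and CHRD, the latent TGF-beta binding protein genes LTBP1 and LTBP3, and SMAD9. The opposite pattern, higher in both epithelia in all 4 pairs, was found for 6 genes (14.0%), against 12.7% of all genes. These were the receptors ACVR1B and BMPR1B, the convertase gene FURIN, SMAD3, SMURF1 and ID2. In these bulk captures, fewer cells of a type and less RNA per cell cannot be told apart.

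The other question was what differed between pregnant and cyclic gilts within a compartment. The rule for the limits was that of the study's methods. The study applied it to edgeR's robust GLM, whereas the quasi-likelihood test was used here. LE had a false discovery rate of 1%, which let through unadjusted p-values up to 0.000328, and that p then served as the limit for GE, BV and S. In LE 2 of 36 genes were called, both higher in pregnant gilts, against 3.32% of all genes in either direction and 2.02% called higher. BV also had 2 of 40, both higher, against 1.86% in either direction and 1.30% called higher. In GE 0 of 36 were called, against 0.748% of all genes, and in S 0 of 41, against 0.293%. The 4 genes were the receptor genes ACVR1 and TGFBR3 in LE, and the receptor gene BMPR1B and the convertase gene FURIN in BV. At an unadjusted p under 0.05 the same test gave 9 higher and 3 lower genes in LE, 7 higher and 0 lower genes in GE, 8 higher and 10 lower genes in BV, and 7 higher and 5 lower genes in S. Of all genes, 26.9% (14.0% higher and 13.0% lower) had such a p in LE and 23.0% (11.2% and 11.8%) in GE, and the shares were 28.5% (14.4% and 14.1%) for BV and 14.5% (7.49% and 7.05%) for S. At a false discovery rate of 5% in each compartment 6 genes were called in LE, 5 in BV and 0 in GE and S, against 10.7%, 8.63%, 1.86% and 0.0335% of all genes. In the order LE, GE, BV and S, DESeq2 called 9, 2, 5 and 0 of the genes, against 11.2%, 6.66%, 8.52% and 2.60% of all genes, and edgeR's robust GLM called 8, 2, 8 and 0, against 11.8%, 6.66%, 11.0% and 3.16%. Genes called by both of these tools are described below with their quasi-likelihood values.

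Counted over the list, groups without overlap were found for 8 of 36 genes in LE (6 pregnant above, 2 below) and 6 of 36 in GE (all above), then for 11 of 40 genes in BV (5 above, 6 below) and 5 of 41 in S (2 above, 3 below). Among all genes tested the shares were 19.4% in LE (10.3% above and 9.12% below), 22.9% in GE (11.6% and 11.3%), 18.2% for BV (8.68% and 9.54%) and 8.81% for S (3.62% and 5.19%). The median log2 fold change of the genes was 0.36 for LE, 0.24 for GE, 0.10 for BV and 0.07 for S, beside -0.01, -0.01, 0.00 and 0.00 over all genes tested. In LE 24 of 36 and in GE 23 of 36 had a positive fold change, as did 23 of 40 in BV and 22 of 41 in S.

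The genes without overlap were, with pregnant libraries above, TGFBR3, ACVR1, ACVR1B, SMAD3, LTBP3 and FURIN in LE, ACVR1B, ACVRL1, INHBB, SMAD3, SMURF1 and LTBP3 in GE, TGFB1, BMPR1B, SMURF1, ID2 and FURIN in BV, and ACVR1B and SMAD9 in S. Pregnant libraries were below for BMPR1A and ID4 in LE, for TGFBR1, BMP2, BMPR1A, SMAD5, SMURF2 and ID4 in BV, and for BMPR1A, SMAD5 and SMURF2 in S.

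Marker levels were also compared between pregnant and cyclic libraries. In LE the epithelial sum was 2886 to 3373 CPM in cyclic and 2395 to 2724 CPM in pregnant libraries, and the smooth muscle sum 156 to 394 CPM and 95.4 to 120.3 CPM, both without overlap. Of the epithelial markers 3 of 9 were higher in pregnant LE and 1 was called lower, and of the smooth muscle markers 0 of 3 tested were higher. The sums of fibroblast (2909 to 12070 and 7232 to 13193 CPM), endothelial (135 to 739 and 428 to 1052 CPM) and leukocyte markers (63.5 to 149.8 and 125 to 253 CPM) overlapped there, with 5 of 7, 8 of 8 and 4 of 4 markers tested higher in pregnant LE and none called. In GE the sum of 10 leukocyte markers was 29.9 to 48.2 CPM in cyclic and 101.7 to 140.9 CPM in pregnant libraries without overlap, and all 5 tested were higher (median log2 fold change 1.28, none called). All 5 endothelial markers tested in GE were also higher (median log2 fold change 1.07, none called), with overlapping sums, and 1 fibroblast marker was called higher. In BV all 8 leukocyte markers tested were higher (median log2 fold change 0.53, none called), with overlapping sums, and the epithelial and smooth muscle markers of BV stand beside the genes of BV. Of 9 endothelial markers in BV, 7 were higher and 1 was called. In S the smooth muscle sum was 332 to 897 CPM in cyclic and 192 to 306 CPM in pregnant libraries without overlap (1 of 6 tested higher, 1 called lower), and all 8 epithelial markers tested were higher (median log2 fold change 1.19, none called) with overlapping sums. The part of these cell types in the results of LE, GE, BV and S was not tested.

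**Figure D2:**
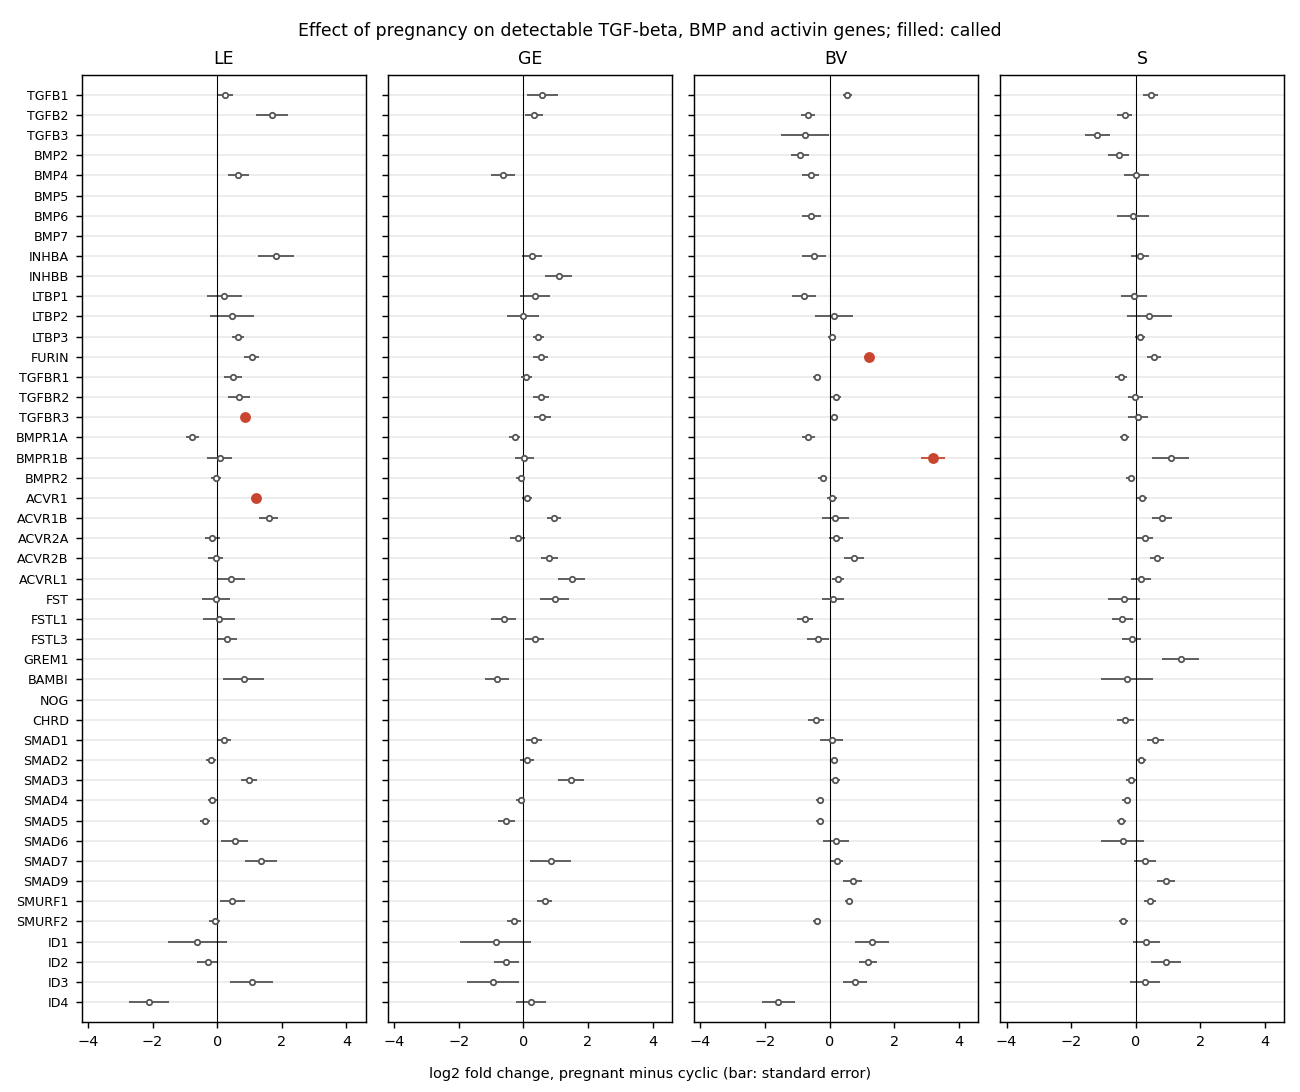
Log2 fold change between pregnant and cyclic gilts for each detectable gene in LE, GE, BV and S, with its standard error as a bar. The 4 filled points were called, with log2 fold changes of 1.21 for ACVR1 and 0.87 for TGFBR3 in LE, and of 3.20 for BMPR1B and 1.23 for FURIN in BV.

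The 3 TGF-beta genes had their highest mean level in BV, but only TGFB3 was called between BV and S. Per kilobase of exon, TGFB3 led in BV with 26.7 CPM per kb, ahead of BMP4 with 22.2 and TGFB1 with 21.4. In S the leading ligands were TGFB1 with 19.1 and BMP4 with 18.4 CPM per kb. TGFB2 was the leading ligand in LE, with 14.004 CPM per kb. INHBB, which encodes the beta B subunit of activin B and is named here after its values were seen, led in GE with 21.2 CPM per kb and was higher there than in LE (log2 difference -3.52, standard error 0.41, adjusted p = 4.67e-07 for LE minus GE).

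TGFB1 encodes the widely expressed TGF-beta 1. It read 42.02, 54.8, 51.7 and 43.8 CPM in cyclic BV and 63.0, 72.8, 73.6 and 69.8 CPM in pregnant BV, and 51.6, 38.4, 33.9 and 53.7 CPM in cyclic S and 85.4, 49.4, 48.8 and 61.0 CPM in pregnant S. In the epithelia it read 16.1, 17.9, 18.8 and 9.78 CPM in cyclic LE and 12.1, 20.0, 20.4 and 20.8 CPM in pregnant LE, and 3.67, 8.07, 2.02 and 7.21 CPM in cyclic GE and 8.66, 5.50 and 9.56 CPM in pregnant GE. Every LE library was above every GE library, and TGFB1 was higher in LE than in GE (log2 difference 1.42, standard error 0.24, adjusted p = 4.88e-05) and lower in LE than in S (log2 difference -1.62, standard error 0.21, adjusted p = 1.39e-06), while BV and S were not called apart (log2 difference 0.15, standard error 0.20, adjusted p = 0.676). The pregnant BV libraries all lay above the cyclic ones, but the difference was not called (log2 fold change 0.55, standard error 0.13, adjusted p = 0.0380).

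TGFB3, of the same subfamily, was concentrated in BV. It read 71.9, 131, 179 and 130.03 CPM in cyclic BV and 217, 12.9, 51.0 and 18.9 CPM in pregnant BV. The S libraries read 44.3, 27.5, 10.9 and 16.3 CPM in cyclic S and 11.9, 11.8, 8.52 and 11.2 CPM in pregnant S. BV exceeded S (log2 difference 2.33, standard error 0.41, adjusted p = 0.000620) and S exceeded LE (log2 difference -2.41 for LE minus S, adjusted p = 0.000131). LE and GE held little of it, with 8.56, 1.97, 1.997 and 1.82 CPM in cyclic LE and 3.34, 2.55, 4.14 and 1.60 CPM in pregnant LE, and 1.30, 3.69, 1.62 and 0.848 CPM in cyclic GE and 2.16, 0.786 and 0 CPM in pregnant GE. In pregnant BV, P139 stood at 217 CPM and the other 3 between 12.9 and 51.0 CPM, and the groups overlapped (log2 fold change -0.76, standard error 0.75, adjusted p = 0.539). The smooth muscle marker sum followed the same order in those 4 libraries, at 6317 CPM in P139 and 749.6 to 1927 CPM in the others. In cyclic BV the orders differed, with the highest marker sum in C78 (17305 CPM) and the highest TGFB3 in C42 (marker sum 7604 CPM). The part of smooth muscle in the result was not tested.

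TGFB2 had another distribution, with GE alone called lower than the other compartments when averaged over cyclic and pregnant gilts. It read 73.3, 59.2, 43.4 and 40.5 CPM in cyclic LE and 244, 304, 71.5 and 74.0 CPM in pregnant LE, and 29.0, 12.0, 21.6 and 17.2 CPM in cyclic GE and 25.8, 28.6 and 21.2 CPM in pregnant GE. In BV and S it read 131, 159.7, 177 and 167 CPM in cyclic BV and 133, 60.3, 96.9 and 108 CPM in pregnant BV, and 109, 148, 208 and 94.5 CPM in cyclic S and 109.7, 113, 106 and 110.3 CPM in pregnant S. GE was below LE, BV and S in each pair (log2 differences 2.11 for LE minus GE, -2.58 for GE minus BV and -2.54 for GE minus S, all called). Within cyclic gilts every LE library, at most 73.3 CPM, was also below every BV and S library, at least 94.5 CPM. Among pregnant gilts, LE of P41 and P43 was below every S library, and LE of P139 and P39 was above them. Pregnant LE split into P139 and P39 at 244 and 304 CPM, and P41 and P43 at 71.5 and 74.0 CPM, next to the highest cyclic library, C128 at 73.3 CPM. The quasi-likelihood test did not call this difference (log2 fold change 1.70, standard error 0.49, adjusted p = 0.0569), whereas DESeq2 (adjusted p = 0.00601) and the robust GLM (adjusted p = 0.000734) did. In BV the log2 fold change was -0.66 (adjusted p = 0.0914).

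INHBA encodes the beta A subunit shared by activin A and inhibin A. The annotation holds this gene ID at 2 places, both marked partial. On chromosome 12 it has 1750 exon bases and the biotype other, and on chromosome 18 it has 2139 exon bases and is protein-coding. The counts do not separate the placements. INHBA read 11.2, 11.4, 8.27 and 8.87 CPM in cyclic LE and 69.7, 42.3, 11.14 and 15.0 CPM in pregnant LE, and 20.1, 13.8, 13.5 and 20.4 CPM in cyclic GE and 30.1, 16.2 and 14.6 CPM in pregnant GE. In BV and S it read 15.8, 13.8, 19.3 and 18.3 CPM in cyclic BV and 22.8, 9.85, 8.05 and 7.05 CPM in pregnant BV, and 10.4, 7.29, 7.29 and 10.3 CPM in cyclic S and 12.9, 11.4, 7.53 and 6.81 CPM in pregnant S. As for TGFB2, P139 and P39 had the highest values in pregnant LE, while P41 lay below C128 and C40. The difference in LE was not called by the quasi-likelihood test (log2 fold change 1.82, standard error 0.55, adjusted p = 0.0655) but by DESeq2 (adjusted p = 0.00945) and the robust GLM (adjusted p = 0.00521).

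The effect of pregnancy on INHBA differed between the compartments (interaction test of edgeR over all 31 libraries, adjusted p = 0.00297). Of the 33 genes detectable in every compartment, 3 passed this test, INHBA, ACVR1 and SMAD3, against 3.05% of all 9727 genes. For INHBA the effect in LE exceeded that in BV (difference of the log2 fold changes 2.17, standard error 0.36, adjusted p = 0.000681), and the pair of LE and GE gave a larger p (difference of the log2 fold changes 1.54, standard error 0.36, adjusted p = 0.0167). The interaction was called in 3 of 8 fits that left out 1 gilt, with an adjusted p between 0.000956 and 0.0274, and it was lost without C128, C42, C78, P139 or P39. It was not called without the block for the gilt (adjusted p = 0.0605). At a false discovery rate of 5%, BMPR1B (adjusted p = 0.0236) and TGFB2 (adjusted p = 0.0268) also passed, against 9.49% of all genes.

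BMP4, a BMP ligand of mesenchymal cells, read 77.0, 132, 99.9 and 98.6 CPM in cyclic BV and 45.3, 50.4, 76.6 and 97.2 CPM in pregnant BV, and 52.0, 76.8, 121 and 30.1 CPM in cyclic S and 55.7, 86.9, 53.4 and 85.5 CPM in pregnant S. The epithelia read 11.5, 10.05, 6.28 and 10.9 CPM in cyclic LE and 20.6, 15.6, 8.43 and 16.0 CPM in pregnant LE, and 13.4, 31.6, 21.2 and 17.4 CPM in cyclic GE and 19.3, 9.43 and 11.7 CPM in pregnant GE. Every BV library was above every LE and GE library, while BV and S (log2 difference 0.28, standard error 0.24, adjusted p = 0.486) and LE and GE (log2 difference -0.40, standard error 0.27, adjusted p = 0.221) were not called apart. Pregnant and cyclic groups overlapped in each compartment. BMP2 and BMP6 were also higher in BV and S, with 8.46 to 32.3 CPM and 7.58 to 19.6 CPM in BV, 4.59 to 15.7 CPM and 2.19 to 8.85 CPM in S, and no library above 5.99 CPM in LE or GE.

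**Figure D3:**
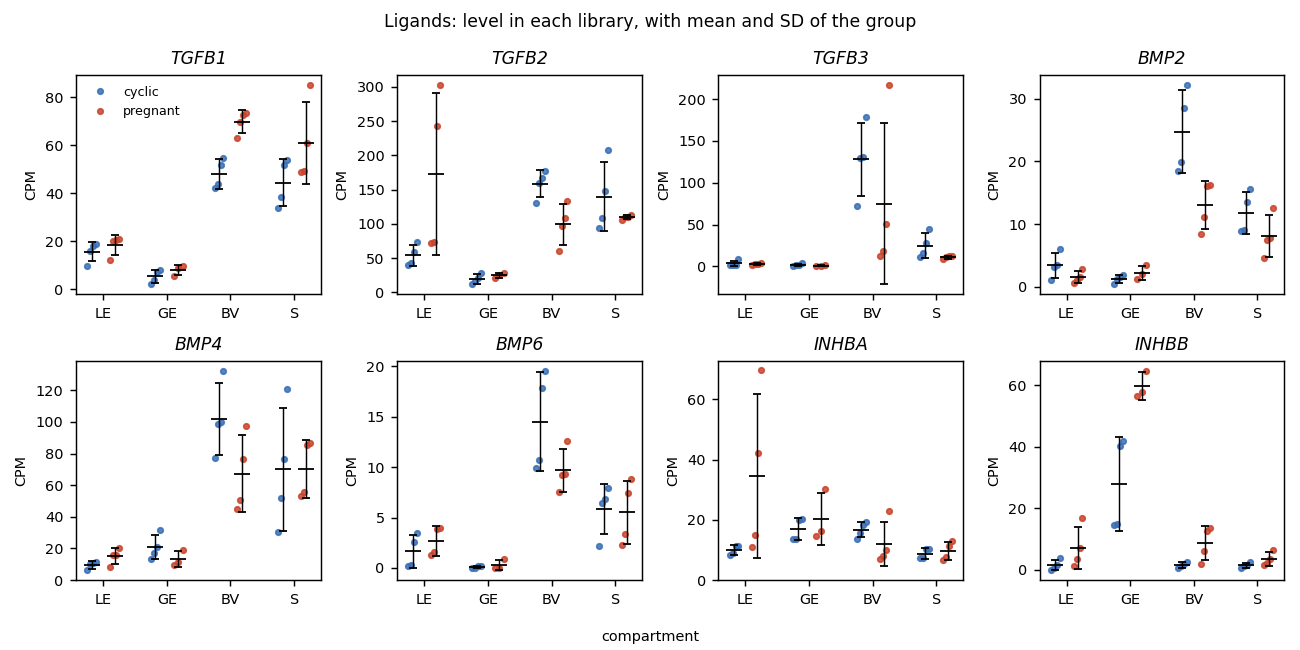
CPM of 8 ligand genes in each library of cyclic (blue) and pregnant (red) gilts by compartment, with the mean and SD of the group. TGFB3 is near 0 outside BV and S, INHBB is high in GE, and the pregnant LE libraries of TGFB2 and INHBA split into a high and a low pair, at 244 and 304 against 71.5 and 74.0 CPM for TGFB2.

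LTBP1 and LTBP3 encode latent TGF-beta binding proteins, which anchor the inactive ligand in the matrix, and LTBP2 encodes a matrix protein named with them. LTBP1 read 1194, 691, 862 and 959.9 CPM in cyclic BV and 1025, 339, 431 and 328 CPM in pregnant BV. In S it read 352, 120.0, 75.1 and 146 CPM in cyclic S and 149, 214, 155 and 147 CPM in pregnant S. BV was above S (log2 difference 2.11, standard error 0.31, adjusted p = 9.56e-05), and every BV library was above every LE and GE library. In LE and GE it read 79.5, 18.6, 39.4 and 11.15 CPM in cyclic LE and 31.9, 70.0, 34.0 and 33.3 CPM in pregnant LE, and 23.6, 27.0, 14.7 and 5.72 CPM in cyclic GE and 23.6, 29.6 and 14.9 CPM in pregnant GE. Within cyclic gilts BV exceeded S by 2.61 on the log2 scale (standard error 0.44, adjusted p = 0.000843) and within pregnant gilts by 1.62 (standard error 0.43, adjusted p = 0.0555). P139 had 1025 CPM in BV, within the cyclic range, and the other 3 pregnant gilts 328 to 431 CPM. The difference between pregnant and cyclic BV was not called (log2 fold change -0.79, standard error 0.37, adjusted p = 0.190). Smooth muscle markers were lower in pregnant BV for all 7 genes, with none called and a median log2 fold change of -1.72, and their part was not tested.

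LTBP3 read 121, 103, 109.6 and 111 CPM in cyclic BV and 142, 111, 111 and 101 CPM in pregnant BV, and 98.6, 105, 83.8 and 98.8 CPM in cyclic S and 87.0, 105, 117 and 112 CPM in pregnant S. The epithelia read 31.8, 23.4, 35.1 and 22.5 CPM in cyclic LE and 49.6, 42.3, 41.7 and 41.3 CPM in pregnant LE, and 38.5, 39.9, 39.99 and 42.4 CPM in cyclic GE and 63.8, 59.5 and 43.6 CPM in pregnant GE. All BV and S libraries lay above all LE and GE libraries, and GE exceeded LE (log2 difference -0.43, standard error 0.11, adjusted p = 0.00285 for LE minus GE), a call lost without P39 or C40 (largest adjusted p = 0.0218). The pregnant groups lay above the cyclic ones without overlap in LE and GE, but neither difference was called (log2 fold change 0.65, adjusted p = 0.0541 in LE, and log2 fold change 0.46, adjusted p = 0.154 in GE). The leukocyte markers of pregnant GE were higher beside it, and their part was not tested. LTBP2, 43.03 to 285 CPM in BV and 9.07 to 54.7 CPM in S, was also higher in BV than in S (log2 difference 2.19, standard error 0.44, adjusted p = 0.00193), a call lost without P39 or P41 (largest adjusted p = 0.0106). LTBP2 shares 1518 of its 9191 exon bases with ISCA2 on the opposite strand, and the strand setting of the counting is not given in the sources used here.

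FURIN (gene ID 100156882, chromosome 7 from 53455634 to 53472791), the convertase that cleaves the precursors of TGF-beta and other ligands, was an epithelial gene in cyclic gilts. It read 91.3, 99.4, 133 and 172 CPM in cyclic LE and 234, 207, 302 and 289.7 CPM in pregnant LE, and 288, 244, 386 and 323 CPM in cyclic GE and 316, 511 and 530.2 CPM in pregnant GE. GE was above LE (log2 difference -1.10 for LE minus GE, adjusted p = 5.53e-06) and LE above BV (log2 difference 1.61, adjusted p = 1.74e-08). In BV and S it read 38.7, 38.4, 37.8 and 35.3 CPM in cyclic BV and 99.8, 90.6, 66.3 and 93.1 CPM in pregnant BV, and 57.0, 44.0, 52.9 and 51.2 CPM in cyclic S and 78.3, 50.9, 103 and 67.8 CPM in pregnant S. FURIN rose in pregnant BV, where the lowest pregnant library, at 66.3 CPM, was above the highest cyclic one, at 38.7 CPM (log2 fold change 1.23, standard error 0.15, adjusted p = 0.0130). The call held in all 8 fits without 1 library, with log2 fold changes from 1.16 to 1.34. A false discovery rate of 1% within BV called no gene of the family.

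In LE the 4 pregnant libraries of FURIN, from 207 to 302 CPM, were also above the 4 cyclic ones, from 91.3 to 172 CPM. The quasi-likelihood test did not call this (log2 fold change 1.06, standard error 0.24, adjusted p = 0.0255), while DESeq2 (adjusted p = 0.000829) and the robust GLM (adjusted p = 0.000725) did, and without C78 the quasi-likelihood test did too (adjusted p = 0.00761). In GE and S the log2 fold changes were 0.53 (adjusted p = 0.238) and 0.55 (adjusted p = 0.287). The effect on FURIN was not shown to differ between compartments (interaction, adjusted p = 0.257).

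The receptor genes differed in where they were expressed. TGFBR2, the type II receptor of TGF-beta, had 111 CPM per kb in S and 82.1 in BV, the highest levels per length among the receptors. It read 289, 341, 359 and 337 CPM in cyclic BV and 265, 453, 371 and 419 CPM in pregnant BV, and 274, 577, 560.3 and 517 CPM in cyclic S and 521, 529, 369 and 487 CPM in pregnant S. The epithelia read 78.7, 168, 168 and 72.4 CPM in cyclic LE and 124, 259, 211 and 178 CPM in pregnant LE, and 30.7, 47.5, 29.5 and 45.8 CPM in cyclic GE and 66.3, 42.2 and 58.8 CPM in pregnant GE. LE exceeded GE (log2 difference 1.69, standard error 0.20, adjusted p = 5.25e-07) and was exceeded by S (log2 difference -1.66, standard error 0.18, adjusted p = 1.19e-07). The pregnant and cyclic libraries overlapped in each compartment, and no fold change was called. TGFBR1, the type I partner, had the same order of compartments, with 23.4 to 33.3 CPM in GE and 64.7 to 139.6 CPM in S.

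TGFBR3 (gene ID 397512, chromosome 4 from 125109939 to 125310788), which encodes the coreceptor betaglycan, was a stromal and vascular gene. It read 231, 269.7, 256 and 254 CPM in cyclic BV and 239, 301, 256 and 307 CPM in pregnant BV, and 260.2, 489, 559.5 and 406 CPM in cyclic S and 252, 632, 431 and 477 CPM in pregnant S. S was above BV (log2 difference -0.70, standard error 0.14, adjusted p = 0.00211 for BV minus S), a call lost without P39, C40 or C42. In the epithelia it read 59.4, 71.0, 60.2 and 54.8 CPM in cyclic LE and 110.0, 127, 106 and 101 CPM in pregnant LE, and 32.4, 43.8, 51.9 and 66.6 CPM in cyclic GE and 70.1, 63.9 and 86.9 CPM in pregnant GE. TGFBR3 rose in pregnant LE, where the lowest pregnant library, at 101 CPM, was above the highest cyclic one, at 71.0 CPM (log2 fold change 0.87, standard error 0.14, adjusted p = 0.00671). This call was lost in each of the 8 fits without 1 library (adjusted p from 0.0127 to 0.0257). The sums of the epithelial and smooth muscle markers were lower in pregnant LE, as given above. Of the other markers tested there, 8 of 8 endothelial, 4 of 4 leukocyte and 5 of 7 fibroblast markers were higher, with none called and overlapping sums. The part of these cell types in the result was not tested. DESeq2 and the robust GLM also called TGFBR3 in LE, with log2 fold changes of 0.87 and 0.87. GE, BV and S gave 0.58, 0.14 and 0.07, and the interaction was not called (adjusted p = 0.138).

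ACVR1 (gene ID 100152307, chromosome 15 from 64749478 to 64891653), a type I receptor for BMPs also known as ALK2, had the smallest adjusted p of the family in LE. It read 58.9, 54.0, 74.2 and 56.9 CPM in cyclic LE and 151, 134, 138 and 134 CPM in pregnant LE. Every pregnant LE library was at 134 CPM or more and every cyclic one at 74.2 CPM or less, and ACVR1 rose in pregnancy (log2 fold change 1.21, standard error 0.15, adjusted p = 0.00251). The call was lost only without C40 among the 8 fits without 1 library (adjusted p = 0.0118). In the other compartments it read 69.4, 86.2, 74.3 and 80.3 CPM in cyclic GE and 90.1, 71.5 and 89.9 CPM in pregnant GE, and 90.8, 77.6, 60.2 and 83.3 CPM in cyclic BV and 90.9, 69.0, 90.0 and 76.1 CPM in pregnant BV, and 65.5, 53.0, 64.5 and 63.7 CPM in cyclic S and 84.9, 73.3, 58.3 and 66.1 CPM in pregnant S. Those 3 compartments overlapped between the groups, with log2 fold changes of 0.10 (GE), 0.08 (BV) and 0.20 (S). The effect on ACVR1 differed between compartments (interaction, adjusted p = 0.00228). LE exceeded GE (difference of the log2 fold changes 1.10, standard error 0.21, adjusted p = 0.00446), BV (difference of the log2 fold changes 1.15, standard error 0.20, adjusted p = 0.00117) and S (difference of the log2 fold changes 1.02, standard error 0.20, adjusted p = 0.00573). Leaving out 1 gilt kept the interaction below 1% in 4 of 8 fits (adjusted p from 0.00216 to 0.0162), and it was lost without C40, C78, P39 or P43.

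ACVR1 was also compared between compartments within each group of gilts. Within cyclic gilts LE minus GE was -0.35 on the log2 scale (standard error 0.14, adjusted p = 0.0541) and within pregnant gilts 0.74 (standard error 0.16, adjusted p = 0.00103). For LE minus BV the values were -0.35 (adjusted p = 0.0456) and 0.77 (adjusted p = 0.000200).

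ACVR1B, the type I receptor of activin, was highest in LE. It read 23.8, 43.3, 27.7 and 51.6 CPM in cyclic LE and 143, 109, 82.3 and 108 CPM in pregnant LE, and 14.04, 20.5, 22.6 and 25.9 CPM in cyclic GE and 44.5, 38.5 and 37.9 CPM in pregnant GE. The BV and S libraries read 11.4, 5.69, 12.2 and 15.7 CPM in cyclic BV and 14.8, 20.1, 5.36 and 10.02 CPM in pregnant BV, and 12.8, 9.53, 5.47 and 13.5 CPM in cyclic S and 23.9, 13.7, 21.0 and 13.96 CPM in pregnant S. LE exceeded GE (log2 difference 1.17, standard error 0.22, adjusted p = 0.000115) and GE exceeded S (log2 difference 1.01, standard error 0.22, adjusted p = 0.000442), while S and BV were not called apart. In LE all pregnant libraries, from 82.3 to 143 CPM, were above all cyclic ones, from 23.8 to 51.6 CPM, with an adjusted p just over the limit (log2 fold change 1.60, standard error 0.30, adjusted p = 0.0108). It was called without C78 (adjusted p = 0.00605), by DESeq2 (adjusted p = 1.56e-05) and by the robust GLM (adjusted p = 9.22e-07). GE and S also showed no overlap, again without a call (log2 fold change 0.94, adjusted p = 0.0704 in GE, and log2 fold change 0.80, adjusted p = 0.293 in S), and for GE the other 2 tools called it. The leukocyte markers of pregnant GE given above were higher beside ACVR1B. In S, P41 and P139 had the highest epithelial marker sums of the pregnant libraries (480.2 and 298 CPM) and ACVR1B at 21.0 and 23.9 CPM, while P43 and P39 had 110.3 and 34.2 CPM of these markers and 13.96 and 13.7 CPM of ACVR1B, and the part of either cell type was not tested. The interaction was not called (adjusted p = 0.106).

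BMPR1B (gene ID 396691, chromosome 8 from 124536648 to 125035841), a type I receptor for BMPs, was an epithelial gene and had the largest fold change of the family between pregnant and cyclic gilts, in BV. In LE and GE it read 89.1, 252, 126 and 228 CPM in cyclic LE and 284, 183, 142 and 118 CPM in pregnant LE, and 95.1, 97.7, 151 and 207 CPM in cyclic GE and 129.7, 124 and 173 CPM in pregnant GE. The groups overlapped in both epithelia, with log2 fold changes of 0.08 and 0.03. In BV and S it read 2.69, 1.798, 2.27 and 1.70 CPM in cyclic BV and 31.7, 12.5, 17.2 and 17.8 CPM in pregnant BV, and 11.6, 1.68, 6.56 and 11.6 CPM in cyclic S and 23.9, 4.56, 21.9 and 16.7 CPM in pregnant S. Cyclic BV held at most 2.69 CPM and pregnant BV at least 12.5 CPM, and BMPR1B rose there (log2 fold change 3.20, standard error 0.36, adjusted p = 0.0130). The call held in all 8 fits without 1 library, with log2 fold changes from 2.88 to 3.37. S gave 1.08 with overlapping groups (adjusted p = 0.436).

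Both genes called in BV were higher in the epithelia than in BV, and epithelial markers moved with them. Averaged over all gilts, BMPR1B was 16.2 times and FURIN 6.10 times as high in the higher of the 2 epithelia as in BV. The level of BMPR1B in pregnant BV was 10.9% of that in pregnant LE and 13.9% of that in pregnant GE, and the level of FURIN 33.8% and 19.3%. All 7 epithelial markers tested in BV were higher in pregnant gilts (median log2 fold change 2.73, 1 called), and the marker sum did not overlap between the groups. In S, where the sums overlapped, P39 had the lowest of its group for the marker sum (34.2 CPM), for BMPR1B (4.56 CPM) and for FURIN (50.9 CPM). The part of epithelial RNA in the BV results was not tested.

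**Figure D4:**
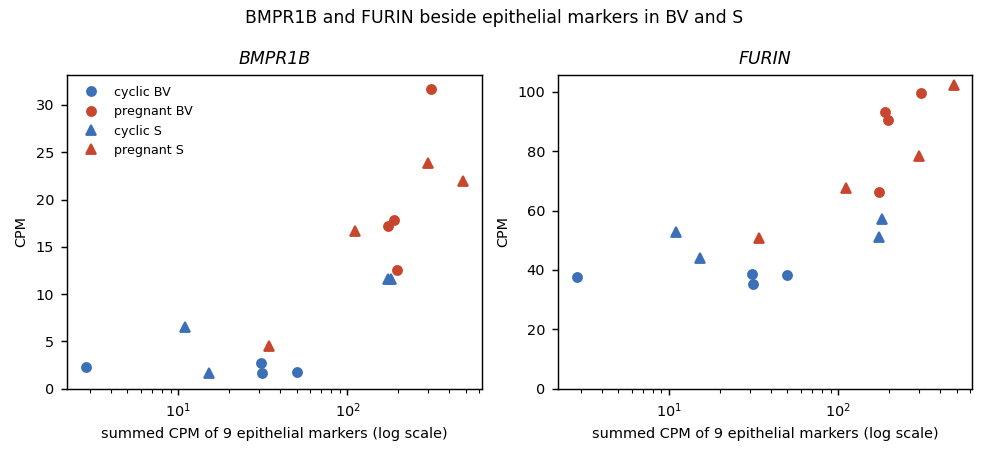
CPM of BMPR1B (left) and FURIN (right) against the summed CPM of 9 epithelial markers on a log scale, for each BV library (circles) and S library (triangles) of cyclic (blue) and pregnant (red) gilts. The 4 pregnant BV libraries lie at marker sums of 174 to 310 CPM and above the 4 cyclic BV libraries, which lie at 2.84 to 50.1 CPM, for both genes.

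BMPR2, the type II receptor of BMPs, was detectable in every compartment. It read 83.5, 102, 108 and 86.2 CPM in cyclic LE and 72.2, 109.8, 84.8 and 98.9 CPM in pregnant LE, and 117, 124, 127.6 and 112 CPM in cyclic GE and 103, 116 and 124 CPM in pregnant GE. The other compartments read 171, 147, 189 and 181 CPM in cyclic BV and 131, 164, 127.96 and 168 CPM in pregnant BV, and 114, 136, 123 and 163 CPM in cyclic S and 133, 114, 105 and 126 CPM in pregnant S. BV was above LE (log2 difference -0.78, standard error 0.09, adjusted p = 3.86e-07 for LE minus BV), and the groups overlapped in each compartment. BMPR1A, the other type I receptor of BMPs, was detectable everywhere, from 74.6 to 121 CPM in S to 112 to 264 CPM in LE, and its pregnant libraries lay below the cyclic ones without overlap in LE, BV and S, with no call of the quasi-likelihood test (log2 fold change -0.77, adjusted p = 0.0455 in LE, log2 fold change -0.66, adjusted p = 0.0658 in BV, and log2 fold change -0.35, adjusted p = 0.292 in S). The endothelial receptor gene ACVRL1 read 48.0 to 84.7 CPM in BV and 1.08 to 5.51 CPM in GE. The type II activin receptor genes ACVR2A and ACVR2B read 30.4 to 64.5 CPM and 13.5 to 35.3 CPM in S, and no fold change of theirs was called.

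**Figure D5:**
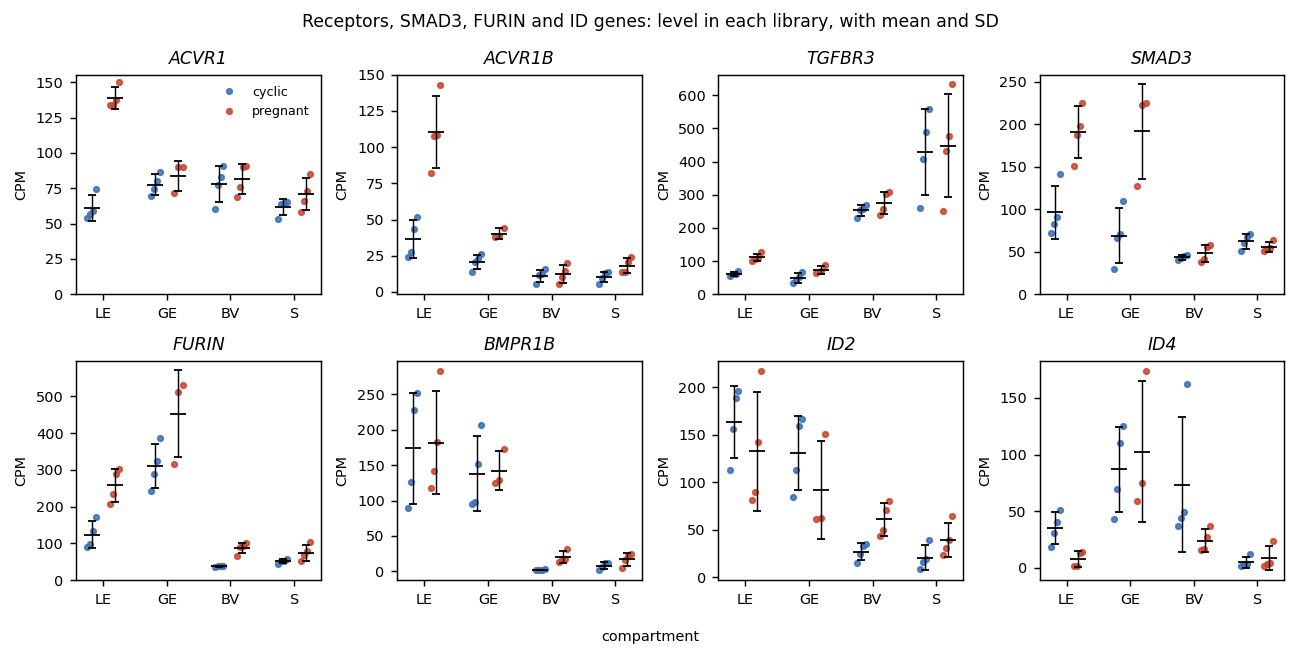
CPM of 8 genes in each library of cyclic (blue) and pregnant (red) gilts by compartment, with the mean and SD of the group. ACVR1 separates in LE only, with pregnant LE at 134 CPM or more, while ACVR1B separates in LE, GE and S and BMPR1B in BV.

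Among the antagonist genes, FSTL1 was the highest gene of the family, with 404 CPM per kb in BV and 238 in S. FSTL1 encodes a secreted follistatin-like glycoprotein. It read 2506, 1802, 2237 and 1313 CPM in cyclic BV and 1021, 1126, 1624 and 866 CPM in pregnant BV, and 1419, 973, 1318 and 506 CPM in cyclic S and 562, 1032, 839.5 and 718 CPM in pregnant S. The epithelia read 303, 152, 260.5 and 48.0 CPM in cyclic LE and 102, 264, 249 and 160.4 CPM in pregnant LE, and 177, 85.8, 81.2 and 47.7 CPM in cyclic GE and 64.0, 65.2 and 63.9 CPM in pregnant GE. Every step of the order BV, S, LE and GE was called, from BV over S (log2 difference 0.77, standard error 0.17, adjusted p = 0.00346) to LE over GE (log2 difference 1.12, standard error 0.18, adjusted p = 3.01e-05), and the step from BV to S was lost without C40, P139, P41 or P43 (largest adjusted p = 0.0180) and without the gilt block (adjusted p = 0.114). The fold change in BV was not called (log2 fold change -0.75, standard error 0.25, adjusted p = 0.0893).

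FST encodes follistatin, which binds activin. It was highest in S and read 59.7, 227, 149 and 145 CPM in cyclic S and 31.3, 177, 138 and 104 CPM in pregnant S, and 38.3, 89.9, 84.9 and 46.7 CPM in cyclic BV and 35.9, 84.1, 68.2 and 91.6 CPM in pregnant BV. In the epithelia it read 23.0, 39.97, 32.8 and 9.10 CPM in cyclic LE and 11.3, 30.2, 30.1 and 29.8 CPM in pregnant LE, and 3.24, 12.9, 8.48 and 9.12 CPM in cyclic GE and 11.2, 17.0 and 21.8 CPM in pregnant GE. Each step of the order S, BV, LE and GE was called, with S over BV the smallest (log2 difference -0.85, standard error 0.21, adjusted p = 0.00773 for BV minus S, lost without C40, C42, P39, P41 or P43 and without the gilt block, adjusted p = 0.0775). P139 had the lowest FST of its group in all 4 compartments, and pregnant and cyclic groups overlapped in LE, GE, BV and S. The fibroblast marker sum of P139 was also the lowest of its group in each, at 7232 CPM in LE, 2637 CPM in GE, 20788 CPM in BV and 30650 CPM in S. The cyclic gilts were mixed. C128 had the lowest FST but the highest fibroblast sum of cyclic GE (5568 CPM) and cyclic BV (69361 CPM). In cyclic S C128 was lowest for FST and C78 for the fibroblast sum (31800 CPM), and in cyclic LE C78 was lowest for both (sum 2909 CPM). The part of these cells was not tested.

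FSTL3, another binder of activin, read 41.7, 24.0, 39.5 and 21.7 CPM in cyclic BV and 34.7, 11.0, 26.8 and 25.6 CPM in pregnant BV, and 42.3, 33.1, 44.5 and 24.8 CPM in cyclic S and 17.5, 42.5, 34.4 and 38.1 CPM in pregnant S. It read 6.42, 5.46, 7.13 and 5.69 CPM in cyclic LE and 11.6, 7.001, 5.998 and 5.44 CPM in pregnant LE, and 5.19, 7.61, 7.67 and 6.15 CPM in cyclic GE and 8.85, 10.7 and 5.97 CPM in pregnant GE. The epithelia reached at most 11.6 CPM and were not called apart (log2 difference -0.16, standard error 0.25, adjusted p = 0.626), and S exceeded LE (log2 difference -2.35, standard error 0.23, adjusted p = 4.28e-08 for LE minus S). FSTL3 shares 973 of its 1815 exon bases with PRSS57 on the opposite strand. CHRD, the gene of the BMP binder chordin, read 36.6, 21.9, 21.9 and 22.9 CPM in cyclic BV and 24.95, 17.1, 21.1 and 14.1 CPM in pregnant BV, and 19.3, 10.9, 13.5 and 18.1 CPM in cyclic S and 8.19, 12.9, 14.1 and 14.3 CPM in pregnant S. In LE and GE CHRD read 4.28, 1.97, 4.56 and 2.50 CPM in cyclic LE and 3.34, 3.18, 4.998 and 3.52 CPM in pregnant LE, and 0.648, 0.692, 0.606 and 1.27 CPM in cyclic GE and 2.16, 1.83 and 0.597 CPM in pregnant GE. CHRD was lowest in GE (log2 difference 1.57, standard error 0.27, adjusted p = 5.04e-05 for LE minus GE) and shares 1229 of 5824 exon bases with THPO on the opposite strand. No antagonist gene was called between pregnant and cyclic gilts in any compartment. GREM1, which encodes gremlin, had 0 counts in all 7 GE libraries, where 3 counts would equal 0.161 CPM in the cyclic and 0.245 CPM in the pregnant group, and read 0.856 to 11.14 CPM in S. BAMBI, the gene of a decoy receptor, was called between no pair of compartments.

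All 8 SMAD genes were detectable in at least 1 compartment. Per kilobase of exon, SMAD5 in GE (32.5 CPM per kb) and SMAD2 in LE (29.5) were the highest. SMAD2, a mediator of TGF-beta and activin signals, read 386, 323, 314 and 311 CPM in cyclic LE and 259, 270.2, 295 and 335 CPM in pregnant LE, and 145, 204, 149 and 211 CPM in cyclic GE and 155, 199 and 224 CPM in pregnant GE. It read 185, 166, 180.3 and 169 CPM in cyclic BV and 164, 193, 201 and 197 CPM in pregnant BV, and 146, 192, 204 and 197 CPM in cyclic S and 229, 220.2, 191 and 191 CPM in pregnant S. LE exceeded every other compartment, and the smallest of these steps was over S (log2 difference 0.66, standard error 0.11, adjusted p = 1.55e-05). GE, BV and S were not called apart. The fold changes lay between -0.19 in LE and 0.17 in S.

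SMAD3, the partner of SMAD2, was higher in the epithelia and gave a difference between compartments in its response. It read 71.5, 82.6, 90.2 and 141 CPM in cyclic LE and 198, 188, 151 and 225 CPM in pregnant LE, and 30.0, 109, 70.9 and 65.9 CPM in cyclic GE and 225, 127 and 223 CPM in pregnant GE. It read 39.7, 42.9, 44.9 and 45.5 CPM in cyclic BV and 57.9, 38.3, 41.4 and 55.3 CPM in pregnant BV, and 50.5, 60.0, 70.4 and 67.1 CPM in cyclic S and 54.5, 53.2, 63.2 and 50.4 CPM in pregnant S. Pregnant libraries were above cyclic ones in LE and in GE without overlap, and the groups overlapped in BV and S. The leukocyte markers were higher in the same pregnant GE libraries without overlap, and their part was not tested. Neither epithelium was called by the quasi-likelihood test (log2 fold change 0.99, standard error 0.25, adjusted p = 0.0375 in LE, and log2 fold change 1.46, standard error 0.40, adjusted p = 0.0942 in GE). DESeq2 called both (adjusted p = 0.00387 in LE and 0.0128 in GE), as did the robust GLM (adjusted p = 0.000726 and 0.000980).

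The interaction was called for SMAD3 (adjusted p = 0.00792). The largest contrast was GE over S (difference of the log2 fold changes 1.63, standard error 0.34, adjusted p = 0.0273), and none of the 6 pairs passed 1% on its own. Leaving out 1 gilt kept the interaction below 1% in 2 of 8 fits (adjusted p from 0.00392 to 0.0647), those without C40 or P41, and without the gilt block it was 0.0171. SMAD3 shares 1450 of its 5999 exon bases with AAGAB on the opposite strand. Within pregnant gilts GE minus S was 1.71 on the log2 scale (standard error 0.25, adjusted p = 1.24e-05), and within cyclic gilts 0.09 (standard error 0.23, adjusted p = 0.745).

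SMAD4, the common partner, read 177, 173, 190.0 and 148 CPM in cyclic LE and 132, 159, 154 and 166 CPM in pregnant LE, and 242, 268, 219 and 240.0 CPM in cyclic GE and 239, 214 and 241 CPM in pregnant GE. It read 248, 234, 263 and 261 CPM in cyclic BV and 194, 238, 197 and 181 CPM in pregnant BV, and 209.6, 262, 274 and 224 CPM in cyclic S and 196, 183, 201 and 217 CPM in pregnant S. LE was below the other compartments (log2 difference -0.44, standard error 0.09, adjusted p = 0.000146 for LE minus S), which were not called apart. SMAD5, of the BMP branch, read 185, 226, 197 and 163 CPM in cyclic LE and 120.3, 165, 157 and 145 CPM in pregnant LE, and 261, 418, 287 and 390.0 CPM in cyclic GE and 199.5, 193 and 316 CPM in pregnant GE. It read 239.7, 275, 261 and 239.7 CPM in cyclic BV and 218, 206, 209 and 186 CPM in pregnant BV, and 230.4, 248, 279 and 296 CPM in cyclic S and 211, 197, 194 and 169 CPM in pregnant S. LE was again lowest (log2 difference -0.43, standard error 0.11, adjusted p = 0.00302 for LE minus S, lost without P139, C42 or C78). The pregnant libraries lay below the cyclic ones without overlap in BV and S, with no call (log2 fold change -0.30, adjusted p = 0.116 in BV, and log2 fold change -0.45, adjusted p = 0.197 in S). SMAD1 was called between no pair of compartments. SMAD6, SMAD7 and SMAD9 were low, with no library above 31.4 CPM.

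SMURF1 and SMURF2 encode ubiquitin ligases that mark receptors and SMADs for degradation. SMURF1 was higher in both epithelia than in BV and SMURF2 lower in LE than in BV. SMURF1 read 33.5, 60.3, 79.6 and 148 CPM in cyclic LE and 129, 109, 103 and 105 CPM in pregnant LE, and 47.8, 84.4, 53.5 and 79.1 CPM in cyclic GE and 91.9, 106 and 119.8 CPM in pregnant GE. It read 46.1, 39.9, 41.2 and 51.0 CPM in cyclic BV and 62.2, 70.9, 70.5 and 64.6 CPM in pregnant BV, and 43.5, 41.8, 29.9 and 54.9 CPM in cyclic S and 53.8, 56.2, 53.1 and 68.8 CPM in pregnant S. Both epithelia exceeded BV (log2 differences 0.73 and 0.58, adjusted p = 0.000683 and 0.00520), and the second of these calls was lost without P39, C40 or P43. In GE the pregnant libraries of SMURF1, from 91.9 to 119.8 CPM, lay above the cyclic ones, from 47.8 to 84.4 CPM, without a call (log2 fold change 0.66, adjusted p = 0.151), beside the leukocyte markers of pregnant GE. In BV every pregnant library, from 62.2 to 70.9 CPM, was above every cyclic one, from 39.9 to 51.0 CPM. This difference was not called by the quasi-likelihood test (log2 fold change 0.60, standard error 0.13, adjusted p = 0.0280) but by DESeq2 (adjusted p = 0.00164) and the robust GLM (adjusted p = 0.00647). The mean of SMURF1 over all gilts was 1.72 times as high in LE as in BV, the epithelial markers of pregnant BV were higher as given above, and their part was not tested. SMURF2 read 99.5, 83.9, 77.0 and 68.7 CPM in cyclic LE and 77.6, 98.0, 64.4 and 67.5 CPM in pregnant LE, and 140.0, 95.4, 81.0 and 81.4 CPM in cyclic GE and 85.6, 81.8 and 76.5 CPM in pregnant GE. It read 113, 148, 129.7 and 126 CPM in cyclic BV and 88.8, 102, 103 and 94.99 CPM in pregnant BV, and 100.1, 114, 104 and 137 CPM in cyclic S and 87.5, 95.3, 83.9 and 79.3 CPM in pregnant S. BV exceeded LE (log2 difference -0.51, standard error 0.11, adjusted p = 0.000607 for LE minus BV), the only pair called, and the pregnant libraries lay below the cyclic ones without overlap in BV and S, with no call (log2 fold change -0.40, adjusted p = 0.0692 in BV, and log2 fold change -0.39, adjusted p = 0.257 in S).

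The ID genes encode inhibitors of helix-loop-helix transcription factors, and ID1, ID2 and ID3 are widely used as readouts of BMP signals. ID2 was epithelial and read 113, 196, 189 and 157 CPM in cyclic LE and 90.0, 81.1, 218 and 142 CPM in pregnant LE, and 112, 159, 84.6 and 166 CPM in cyclic GE and 62.4, 151 and 60.9 CPM in pregnant GE. It read 24.5, 32.7, 35.2 and 14.9 CPM in cyclic BV and 49.9, 80.3, 70.9 and 43.4 CPM in pregnant BV, and 16.0, 18.5, 8.02 and 38.9 CPM in cyclic S and 31.1, 22.8, 63.9 and 39.2 CPM in pregnant S. GE exceeded BV (log2 difference 1.47, standard error 0.28, adjusted p = 7.99e-05) and LE exceeded S (log2 difference 2.39, standard error 0.27, adjusted p = 2.39e-07). All pregnant BV libraries were above all cyclic ones, without a call of the quasi-likelihood test (log2 fold change 1.19, standard error 0.28, adjusted p = 0.0374) and with one of DESeq2 (adjusted p = 0.00251) and of the robust GLM (adjusted p = 0.000363). The mean of ID2 over all gilts was 3.37 times as high in LE as in BV. The epithelial markers of pregnant BV given above were higher beside ID2 too, and their part was not tested.

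ID4 had its highest mean in GE and its lowest in S. It read 70.0, 110.4, 42.8 and 125 CPM in cyclic GE and 74.8, 174 and 59.1 CPM in pregnant GE, and 49.4, 37.5, 44.0 and 162 CPM in cyclic BV and 37.2, 27.3, 16.9 and 15.6 CPM in pregnant BV. It read 30.5, 51.3, 18.8 and 40.95 CPM in cyclic LE and 14.4, 1.91, 13.0 and 1.92 CPM in pregnant LE, and 12.4, 1.96, 3.65 and 2.91 CPM in cyclic S and 3.74, 4.18, 24.2 and 2.04 CPM in pregnant S. GE exceeded LE (log2 difference -2.74, standard error 0.45, adjusted p = 3.15e-05 for LE minus GE) and BV exceeded S (log2 difference 2.80, standard error 0.47, adjusted p = 0.000388). All pregnant LE libraries, at most 14.4 CPM, lay below all cyclic ones, at least 18.8 CPM, and P39 and P43 were down to 1.91 and 1.92 CPM. The quasi-likelihood test did not call this (log2 fold change -2.11, standard error 0.63, adjusted p = 0.0630), whereas DESeq2 (adjusted p = 0.00796) and the robust GLM (adjusted p = 0.000645) did. In BV the log2 fold change was -1.58 (adjusted p = 0.0807), and -0.84 without C78.

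ID3 read 89.4, 155, 149.9 and 45.0 CPM in cyclic BV and 100.2, 252, 214 and 188 CPM in pregnant BV, and 60.7, 131, 33.2 and 214 CPM in cyclic S and 164, 117, 117 and 131 CPM in pregnant S. It read 26.0, 34.7, 60.8 and 5.01 CPM in cyclic LE and 21.1, 97.1, 99.7 and 42.6 CPM in pregnant LE, and 61.6, 14.5, 5.45 and 12.7 CPM in cyclic GE and 10.4, 20.7 and 5.68 CPM in pregnant GE. GE was below BV (log2 difference -3.09, standard error 0.58, adjusted p = 7.75e-05) and S, and no neighbouring pair in the order BV, S, LE and GE was called. ID3 varied widely within groups, from 5.01 to 60.8 CPM in cyclic LE, and ID1, named after its values were seen, varied with it, from 0.910 to 47.1 CPM there. Over the 31 libraries the deviations of ID1 and ID3 from their group means correlated with r = 0.875, against 0.451 for ID1 and ID2 and -0.0876 for ID1 and ID4. This is a description only, since libraries of a gilt share the animal and genes of a library share its depth. In cyclic S the endothelial marker sum was 1169, 1180, 535 and 1751 CPM, and ID1 and ID3 followed the same order. In LE, C78 and P139 had the lowest endothelial sum (135 and 428 CPM), ID1 and ID3 of their groups. In pregnant BV, P139 was also lowest for the endothelial sum (1883 CPM), ID1 and ID3. Other groups differed. In cyclic BV, C78 had the highest endothelial sum (3012 CPM) but the lowest ID1 (2.55 CPM) and ID3 (45.0 CPM). In pregnant S, ID3 followed the order of the sum, but ID1 was 32.5 CPM in P139 (sum 2883 CPM) and 45.5 CPM in P41 (sum 973 CPM). In pregnant GE, P139 had the highest endothelial sum (185 CPM) and the lowest ID1. The part of these cells was not tested.

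As a further description of ID1 and ID3, the 250 bases before the annotated start of each gene are shown (Sscrofa11.1, NCBI RefSeq annotation, 5′ to 3′ on the strand of the gene). Both strands were searched for CAGAC, the core of the SMAD binding element, and for GGCGCC, a GC-rich site bound by BMP SMADs, and the matches may share an end base. Matches are in capitals.
ID1, chr17:35316268-35316517, plus strand: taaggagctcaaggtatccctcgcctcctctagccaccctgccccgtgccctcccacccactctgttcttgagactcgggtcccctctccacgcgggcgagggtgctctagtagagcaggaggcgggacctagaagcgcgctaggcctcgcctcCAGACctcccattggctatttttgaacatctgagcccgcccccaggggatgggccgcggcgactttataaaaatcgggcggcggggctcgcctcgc
ID3, chr6:81424170-81424419, minus strand: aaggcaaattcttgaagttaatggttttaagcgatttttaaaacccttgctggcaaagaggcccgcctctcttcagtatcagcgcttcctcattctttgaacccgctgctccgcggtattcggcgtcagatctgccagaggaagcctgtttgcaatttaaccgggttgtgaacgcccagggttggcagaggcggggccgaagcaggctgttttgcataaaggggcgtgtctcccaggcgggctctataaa
The ID1 window held 1 match to CAGAC, and the ID3 window held none. No window of the 4 ID genes held GGCGCC. Bases outside these windows were not searched, so sites further upstream would be missed. Of the 20640 windows of protein-coding genes, 38.7% held CAGAC and 15.7% held GGCGCC.

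Of 89 other genes of the pathway, listed for this purpose and matched for 87, 57 were tested in LE and 52 in GE, with 54 tested in BV and 55 in S. In LE 2 of these were called higher and 1 lower in pregnant gilts (2.02% and 1.29% of all genes), in GE 1 was higher (0.512%), in BV 1 was higher (1.30%) and in S none was called (0.293% in either direction). ITGB5, the beta subunit of an integrin that can release latent TGF-beta, read 25.7 to 42.4 CPM in cyclic and 88.4 to 127 CPM in pregnant LE and rose there (log2 fold change 1.67, standard error 0.20, adjusted p = 0.00202), a call kept in all 8 fits without 1 library. In GE it rose too (log2 fold change 1.31, standard error 0.20, adjusted p = 0.0394), a call kept in 2 of 7 such fits, those without C40 or C78. The leukocyte marker sums of the same GE libraries, given above, also separated the groups, and their part was not tested. Its partner ITGAV rose in LE from 129 to 353 CPM in cyclic libraries to 602 to 902 CPM in pregnant ones (log2 fold change 1.93, standard error 0.33, adjusted p = 0.00792), a call kept in 1 of 8, that without C128. TLL2, which encodes a metalloprotease, fell in LE from 26.2 to 154 CPM to 7.32 to 14.4 CPM (log2 fold change -3.09, standard error 0.51, adjusted p = 0.00673), a call kept in 2 of 8, those without C128 or C78. TGIF1, the gene of a nuclear repressor of SMAD2 and SMAD3, rose in BV (log2 fold change 1.26, standard error 0.22, adjusted p = 0.0163), a call kept in 3 of 8, those without C78, P139 or P41. It read 15.0 to 22.5 CPM in cyclic and 31.4 to 53.8 CPM in pregnant BV, against 47.9 to 160.1 CPM in LE and 52.7 to 149 CPM in GE, and the part of the epithelial markers that were higher in pregnant BV was not tested. The interaction was called for 2 of the 46 of these genes detectable in every compartment, ITGAV (adjusted p = 0.00374) and ITGB5 (adjusted p = 0.00374), against 3.05% of all genes. With an unadjusted p under 0.05 there were 5 higher and 11 lower of 57 in LE (14.0% and 13.0% of all genes), 8 higher and 6 lower of 52 in GE (11.2% and 11.8%), 9 higher and 7 lower of 54 in BV (14.4% and 14.1%), and 1 higher and 4 lower of 55 in S (7.49% and 7.05%).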

How the data were processed

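The deposited values were raw read counts per gene, 1 full table and 1 filtered table for each compartment. Per the study's methods, the authors used Trim Galore on the reads, aligned these with Hisat2 to the pig genome Sscrofa 11.1 with its NCBI annotation, removed PCR duplicates by their molecular tags, counted reads with QuasR and dropped genes under a CPM limit. Tool versions, that limit and the strand setting of the counting were not given in the sources used here, so reads on exons shared with an overlapping gene cannot be told apart. The filtered counts equalled the full ones for the genes kept.

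The counts were analysed with edgeR 4.0.16 in R 4.3.3, with TMM normalization and the quasi-likelihood F test, which gives every adjusted p (Benjamini-Hochberg over all genes of the fit) unless DESeq2 1.42.0 or edgeR's robust GLM is named. Pregnant and cyclic gilts were compared within each compartment on its filtered table. Compartments, and the interaction of pregnancy and compartment, were tested in 1 fit of 31 libraries with the gilt as a block, at a false discovery rate of 1%. The standard error is that of the fitted log2 value. P-values between pregnant and cyclic gilts within a compartment measure the spread between gilts, with 1 library each. In the fit with the gilt as a block, p-values measure the spread left between libraries after differences between gilts are taken out. Floors of 3 counts cover counting error only. The scripts were tested on simulated counts.

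The block follows from the design, since the compartments of a gilt are of 1 animal. Deviations of libraries of the same gilt from their group means correlated with a median r of 0.165 over 45 pairs (from -0.14 to 0.372), above 0.1 in 35 of them. The 46 genes and the lists were chosen with earlier results of these data known. Values in every library are given for genes called between pregnant and cyclic gilts or in the interaction, for genes called by both other tools, and, in each role, for the 3 with the highest level per length and the 2 with the largest F for compartment. The other genes are given by range and count. Alternatives were DESeq2, the robust GLM, other size factors, no filter on low counts, a false discovery rate of 5%, no block and leaving out each gilt.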

Additional observations from a re-analysis of the deposited data

Results flagged for a closer look

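In 11 of 181 groups of 4 libraries, the highest or lowest library stood apart from the others by Dixon's criterion, and chance gives about 1 in 20. In pregnant LE, P139 was low for TGFB1 (12.1 CPM, next library 20.0) and FST (11.3 CPM, next 29.8) and high for LTBP3 (49.6 CPM, next 42.3). LTBP1 was high in P39 in pregnant LE (70.0 CPM, next 34.0) and pregnant S (213.7 CPM, next 155), and in P139 in pregnant BV (1025 CPM, next 430.6). C128 was high for CHRD in BV (36.6 CPM, next 22.9), SMAD2 in LE (386 CPM, next 323) and ID3 in GE (61.6 CPM, next 14.5). C40 was low for ACVR1 in S (53.0 CPM, next 63.7), and C78 was high for ID4 in BV (162 CPM, next 49.4). The effect of pregnancy differed between compartments by the interaction test for ACVR1 (adjusted p = 0.00228), INHBA (adjusted p = 0.00297) and SMAD3 (adjusted p = 0.00792).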

How the results depend on the processing

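In LE, the 2 genes called between pregnant and cyclic gilts became 9 with DESeq2, 8 with the robust GLM and 6 at a false discovery rate of 5%, and 0 to 4 without 1 library (0 without C40, 4 without C78, 1 without any other). In GE, 0 became 2 with DESeq2 and 2 with the robust GLM, and 0 to 1 without 1 library (1 without C128). In BV, 2 became 5 with DESeq2, 8 with the robust GLM, 5 at a false discovery rate of 5% and 0 at 1% within BV, and 2 to 3 without 1 library. In S the count was 0 in every setting tried. No paired analysis was possible because pregnant and cyclic gilts are different animals.

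Without the gilt as a block, the pairs of compartments had 19 (LE and GE), 33 (LE and BV), 31 (LE and S), 30 (GE and BV), 31 (GE and S) and 5 (BV and S) genes called, against 40.1%, 47.5%, 48.5%, 56.9%, 57.5% and 5.94% of all genes, and the interaction 1 in place of 3, against 2.09%. DESeq2 gave 5 interactions (8.67% of all genes), a false discovery rate of 5% also 5 (9.49%), and leaving out 1 gilt 0 to 3, against 0.833% to 2.62% (0 without P39 or C78, 1 without C128, C42, P139 or P43). BV and S differed in 13 genes at 5%, against 14.4% of all genes, and in 4 to 7 without 1 gilt, against 4.26% to 7.46% (4 without P39, P41 or C40). The other pairs ranged over 18 to 21, 31 to 34, 29 to 34, 27 to 33 and 30 to 33. The cause of these changes was not tested. No direction of a value named was reversed. Genes under the floor of 3 counts could not be compared at this depth.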
